A study of Homo sapiens with 12 samples.

Results

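Nestin, encoded by NES, and 9 other intermediate filament genes were examined in 2 lists of RNA sites bound by an antibody against 1-methylguanosine (m1G). The 10 genes were chosen by name from the filament family, with earlier results of these data known, out of 20050 protein-coding genes of the RefSeq table. They are NES, the mesenchymal filament gene VIM, the synemin gene SYNM, the simple-epithelial keratins KRT7, KRT8, KRT18 and KRT19, and the lamin genes LMNA, LMNB1 and LMNB2. A peak or summit was counted for a gene when it lay inside the gene's GRCh38 span, on either strand. In this way 32 of 9585 MetDiff peaks and 27 of 3705 MACS2 summits fell to the 10 genes.

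The material was polyadenylated RNA of PANC-1, a single established cell line from a human pancreatic ductal adenocarcinoma. It was broken into fragments and either kept as input or immunoprecipitated (IP) with the m1G antibody. The 12 libraries form 4 groups of 3: input and m1G IP of cells labelled WT control, and input and m1G IP of cells depleted of TRMT5 for 4 days by transfected siRNA. All belong to experiment 2, and the labels do not say whether replicates were separate cultures. Both lists describe the series as a whole. They hold no value per library and no replicate error, and neither list has a column labelled with a contrast of knockdown and control, so no condition was compared and no p-value was computed here. Depth is unknown.

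Intermediate filaments are ropes of coiled-coil proteins that give cells and nuclei mechanical strength. Type I and type II keratins pair with each other in epithelial cells, vimentin builds the network of mesenchymal cells, and lamins line the inner face of the nuclear envelope. Nestin and synemin are large members that do not build filaments well by themselves and join networks of vimentin or related proteins. Nestin is known from neural stem cells and from carcinoma cells with mesenchymal traits. TRMT5 is the methyltransferase that places m1G beside the anticodon of certain tRNAs, and the title of the series pairs it with NES.

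Short stretches of DNA sequence at the edges of 3 filament peaks could be read from RefSeq windows (GRCh38.p14), and they are shown because they show the bases at which deposited peaks stop and a place where 2 transcripts share bases. Capitals mark the bases inside a MetDiff block, which is an exonic segment of a peak, and each stretch is written 5′ to 3′ along the strand of the peak. The vimentin stretch (chr10:17229936-17230005, plus strand) lies in the window at the start of the antisense RNA gene VIM-AS1. The synemin stretch (chr15:99105974-99106039, plus strand) lies in the window of SYNM-AS1. The keratin 8 stretch (chr12:52898889-52898929, minus strand) lies in the hairpin MIR9898.
VIM: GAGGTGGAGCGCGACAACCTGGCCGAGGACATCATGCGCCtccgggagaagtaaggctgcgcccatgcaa
SYNM: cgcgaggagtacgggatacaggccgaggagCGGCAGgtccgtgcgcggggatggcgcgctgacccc
KRT8: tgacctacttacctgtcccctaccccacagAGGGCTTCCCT
The synemin block of 6 bases was followed by gt and the keratin 8 block of 23 bases, of which 11 are shown, was preceded by ag, the letters at which most introns begin and end. Of the 40 vimentin bases in capitals, 15 were guanine (37.5%) on the plus strand, against 3 of 6 in synemin and 3 of 11 in keratin 8. Of the 50 bases in this window that the opposite-strand peak of ENSG00000229124 covered, 14 were guanine on the minus strand (28%). No RefSeq window reached a nestin peak, so no nestin sequence is shown.

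Peaks were listed in nearly all of the 10 genes. A MetDiff peak lay in 9 of 10, where 21.3% of protein-coding genes had one. A summit lay in 7 of 10, where 9.46% of protein-coding genes had one. Those 7 genes had both, against 8.07% of protein-coding genes. The 10 genes were named with earlier results known and hold every gene of the family with a peak, so these counts describe the choice. Over the whole family of 68 keratin, type III, type IV, lens filament and lamin genes, 9 had a peak (13.2%, below the 21.3% of protein-coding genes) and 7 a summit (10.3%, beside 9.46%). KRT7 was the exception, with 0 peaks and 0 summits, while KRT19 and LMNB1 had peaks without a summit. The background includes genes that PANC-1 cells do not express, and expression was not analysed here.

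Nestin had the most MetDiff peaks and the most summits of the 10 genes. It spans 8645 bases on the minus strand (chromosome 1, 156668763 to 156677407) and held 8 MetDiff peaks, all under the gene ID ENSG00000132688, and 7 summits. That is 25% of the filament peaks and 25.9% of the filament summits. Of the 4515 gene IDs in the MetDiff list, 73 (1.62%), nestin included, had at least as many peaks. The nestin peaks covered 1698 exonic bases, a length reached by 18 IDs (0.399%), nestin again included.

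The fold deposited with each MetDiff peak was taken to be that of IP over input, going by where the column stands in a table without header; a ratio of another contrast would give every fold here another meaning. From the 5′ end, the first nestin peak (156677158 to 156677308) showed a fold of 2.82 at a false discovery rate (FDR) of 1.17e-03. The second (156676960 to 156677059) showed 5.12 at an FDR of 5.75e-05. The third (156675322 to 156676860) showed 8.19 at an FDR of 2.04e-04. It is the only spliced one in nestin, with blocks of 379 and 19 bases on either side of a gap of 1141 bases. The 3 peaks nearly touch, with 98 and 99 bases between them.

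No nestin peak lay in the next 4073 bases. The fourth peak (156670950 to 156671248) showed a fold of 3.83 at an FDR of 6.31e-04, and the fifth (156670602 to 156670751) one of 2.80 at 8.13e-03. The sixth (156669956 to 156670155) showed 4.26 at 1.82e-04. The seventh (156669707 to 156669807) showed 6.05 at 3.02e-03. The last (156669161 to 156669459) showed 15.1 at 3.80e-05, and only 356 peaks of the whole list (3.71%) had a fold as high. The 2 highest folds of nestin thus stood near opposite ends of the gene, and each end also held 1 of the lowest values, 2.82 and 2.80.

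The nestin summits drew the same outline. Here −log10 q is a measure of significance, not of enrichment. The 2 summits at the 5′ end had −log10 q of 15.8 (156677103) and 31.0 (156676757). The middle of the gene held 1 summit, at 156672989, whose value of 4.01 was exceeded or equalled by 94.8% of all summits. The 4 summits toward the 3′ end had 17.6 (156671227), 17.5 (156670707), 21.4 (156670169) and 40.0 (156669531). The strongest summit lay 72 bases from the peak with the highest fold, and the second strongest lay inside the peak with the second highest fold. Of the 7 summits, 6 came from only 2 MACS2 peaks with several summits each, so they are not 6 separate calls. Over all summits 12.1% shared a peak in this way. Counted by MACS2 peak, nestin did not lead the filament genes. The 5 summits of VIM and the 5 of LMNB2 each came from a separate MACS2 peak.

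**Figure D1:**
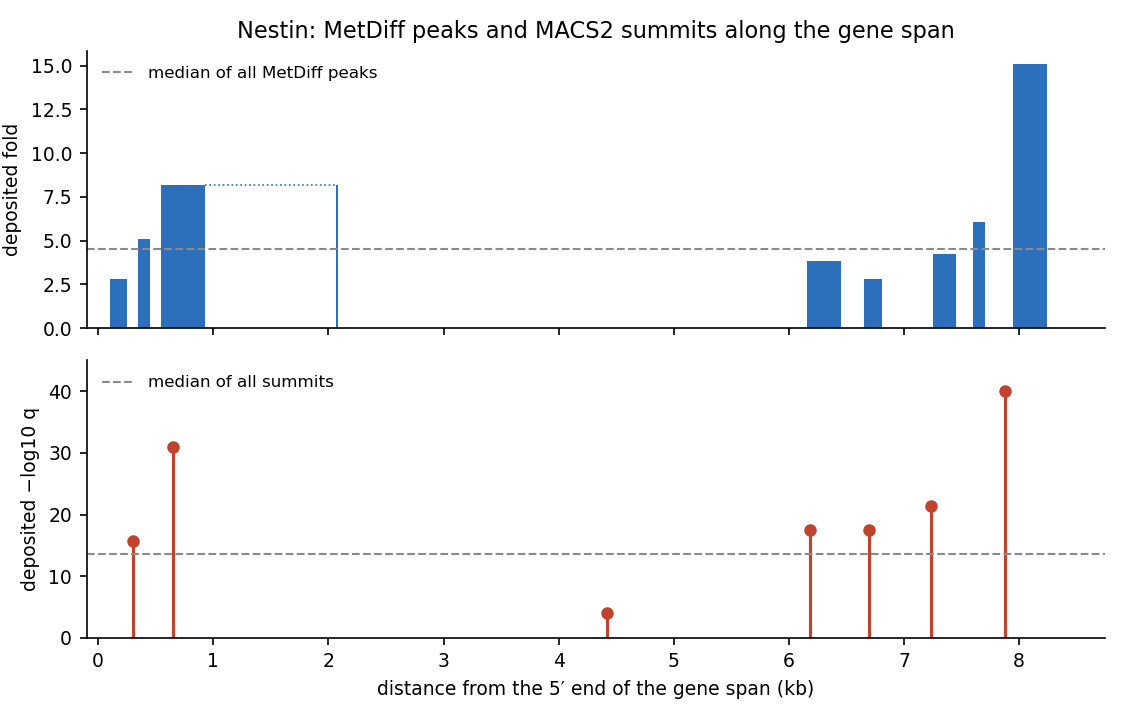
Nestin peaks and summits by distance from the 5′ end of the gene span in kb. Bars in the upper panel are MetDiff blocks at the deposited fold, with a dotted line joining the blocks of the spliced peak; stems in the lower panel are MACS2 summits at their deposited −log10 q; dashed lines are the medians of each whole list (4.5 and 13.7). Peaks gather at both ends, the highest fold (15.1) and the strongest summit (40.0) stand near the 3′ end, and the middle holds only a summit of 4.01.

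Among the cytoplasmic partners, vimentin showed the strongest summits and few peaks. VIM (chromosome 10, 17228241 to 17237593, plus strand) had 5 summits with −log10 q of 109, 14.9, 31.9, 41.5 and 52.9 from the 5′ end. The first, at 17229679, was among only 13 of all summits (0.351%) with a value that high, itself included. The summits of 109, 52.9 and 41.5 were all higher than any nestin summit. In contrast, the gene ID of VIM itself (ENSG00000026025) had 1 MetDiff peak (17229776 to 17229975), at fold 7.10 and FDR 2.00e-06. This peak began 97 bases from the first summit. The other 4 summits of VIM lay between 540 and 5146 bases from any peak block in the span, so the lists lay close together at only 1 place in this gene.

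Synemin showed the opposite. SYNM (chromosome 15, 99105080 to 99141767, plus strand) had 3 peaks under its own ID, with folds of 6.30, 5.29 and 6.50 and FDRs of 2.69e-03, 1.48e-02 and 3.47e-03. All 3 folds were above the list's median of 4.5, while its FDRs were among the weakest of the filament genes. Its only summit, at 99105237, had −log10 q of 6.65, which 85.4% of all summits reached, and it lay 20 bases from the first peak.

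The keratins differed sharply from one another. Keratin 8 and keratin 18 are the type II and type I partners of simple epithelia, and their genes overlap in the RefSeq table. KRT8 (chromosome 12, 52897191 to 52949860, minus strand) had 3 peaks under its own ID (ENSG00000170421), with folds of 3.58, 4.46 and 3.27 from the 5′ end. These folds were all below the list's median, yet their FDRs of 2.63e-07, 5.37e-07 and 2.75e-07 were lower than that of any nestin peak. KRT8 also had summits of 39.3, 11.95 and 45.4. The strongest, at 52900026, lay inside the KRT8 peak with the lowest fold.

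KRT18 (chromosome 12, 52948855 to 52952906) had 2 peaks under its own ID (ENSG00000111057), with folds of 4.03 and 2.17 and FDRs of 1.55e-03 and 7.41e-04. Its 1 summit, of 39.3 at 52949304, is the one also counted for KRT8. KRT19, the keratin 19 gene of ductal epithelium (chromosome 17, 41523617 to 41528308), had 1 peak (41524861 to 41524961) whose fold, 7.83 at an FDR of 2.45e-04, was the highest of the keratins. KRT7, another ductal keratin (chromosome 12, 52233243 to 52255853), had none in either list.

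The lamins came closest to nestin, LMNB2 in its number of peaks and LMNA in the exonic length they covered. Lamin A and C, both made from LMNA, are the lamins of differentiated nuclei, and lamins B1 and B2 are the B types, which stay attached to the membrane. LMNB2 (chromosome 19, 2428166 to 2456959, minus strand) had 7 peaks, a number reached by 121 gene IDs (2.68%). From the 5′ end their folds were 2.18, 2.39, 1.55, 4.89, 11.3, 3.42 and 10.1. The folds of 11.3 and 10.1 both stood near the 3′ end, where nestin had its highest fold but not its second highest. The FDRs of LMNB2 lay between 3.39e-03 and 1.78e-02, above those of 7 of the 8 nestin peaks. Its 5 summits had −log10 q of 3.90, 19.7, 29.7, 8.12 and 8.79. The strongest of these lay inside the peak with a fold of 4.89, not beside either of the 2 highest folds.

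LMNA (chromosome 1, 156082573 to 156140081, plus strand) had 3 peaks with folds of 3.46, 4.57 and 3.16 and FDRs of 4.27e-05, 3.39e-05 and 3.47e-04. All 3 were spliced, and the second ran over 5 blocks. Together they covered 1051 exonic bases, reached by 127 gene IDs (2.81%). LMNA had 6 summits, with −log10 q of 33.8, 34.7, 37.2, 30.6, 9.34 and 11.8. None lay inside a block, but 5 of the 6 lay within 150 bases of one. LMNB1 (chromosome 5, 126776623 to 126837020, plus strand) had 2 peaks, with folds of 9.33 and 2.51 and FDRs of 2.63e-04 and 1.10e-03, and no summit.

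**Figure D2:**
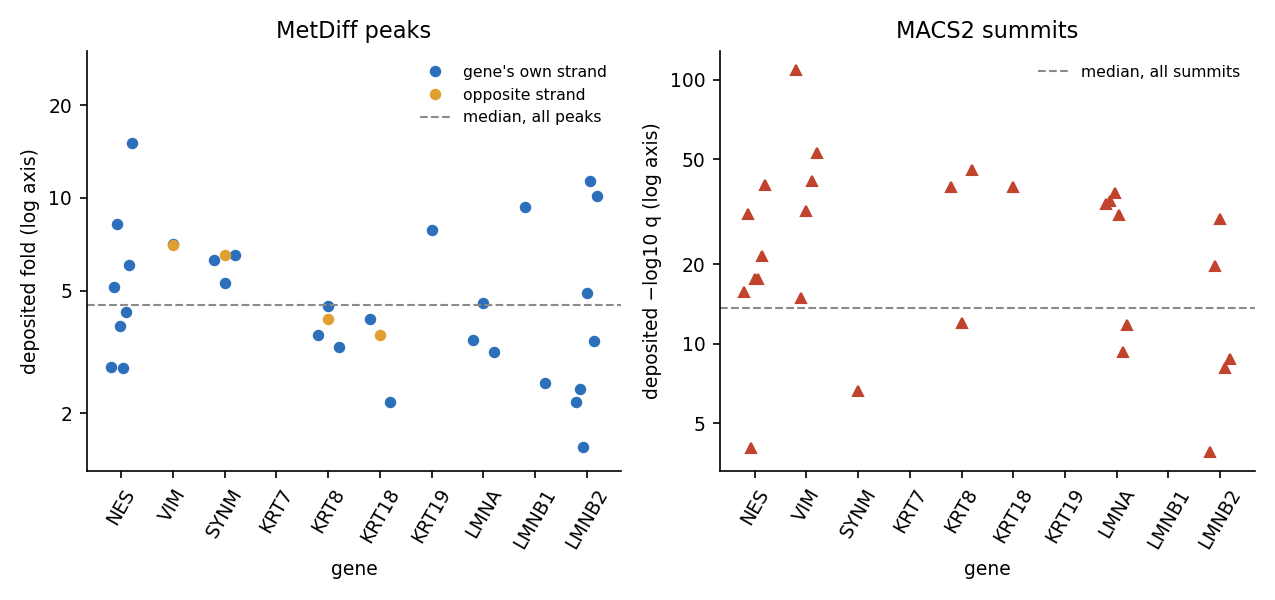
Deposited fold of each MetDiff peak (left) and deposited −log10 q of each MACS2 summit (right) in the 10 filament genes, on log axes. Blue points carry the gene ID of the gene's own strand and orange points that of the opposite strand; the 2 vimentin peaks lie almost on each other, and dashed lines are the medians of the whole lists. Nestin reaches the highest fold (15.1), vimentin the strongest summit (109), and KRT7 has no point in either panel.

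Strength did not set nestin apart as its number of MetDiff peaks did. Those 8 peaks stood 98 to 446 bases from their neighbours, except across the gap of 4073 bases. They need not be 8 separate sites. Its median fold was 4.69, against 4.515 for the 24 peaks of its partners and 4.5 for the whole list. Above the list's median stood 4 of 8 nestin peaks and 12 of 24 partner peaks. The 24 include pairs on opposite strands that share bases, so the same bases enter more than once. These pairs lay in VIM (7.10 and 7.04), SYNM (6.50 and 6.50) and the overlap of KRT8 and KRT18 (3.58 and 4.03). Of all gene IDs, 2285 (50.6%) had a median fold at least as high as nestin. The median FDR was 4.18e-04 for nestin, 9.19e-04 for its partners and 2.40e-04 for the list. For summits the median −log10 q was 17.6 in nestin, 30.2 in the partners and 13.7 in the list, with 6 of 7 nestin summits and 13 of 20 partner summits above the latter. Peaks of 1 gene share a transcript and are not replicates, so these medians were not tested against each other.

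Per length, nestin also had the most MetDiff peaks and the most summits of the 10 genes. It had 0.925 peaks and 0.810 summits per kb of gene span, introns included. KRT18 followed with 0.740 peaks per kb and VIM with 0.535 summits per kb, while LMNB1, with the longest span, had 0.0331 peaks per kb. Of the 3 peaks counted for KRT18, 1 carries the KRT8 ID and shares 149 bases with a peak of KRT18 itself. The median of the 9 partners was 0.109 peaks and 0.0570 summits per kb, so nestin stood 8.49 and 14.2 times higher. These medians include KRT7 without a peak, and KRT7, KRT19 and LMNB1 without a summit. The summit median is the value of KRT8, which has 3 summits, 1 of them also counted for KRT18. The first ratio was 17.7 when peaks that also lay in another gene's span were left out. The second counts summits of 1 MACS2 peak separately. Of the 7 nestin summits, 6 came from 2 MACS2 peaks, while none of the 5 VIM summits shared one. With spans of 8645 bases in nestin and 9353 in VIM, nestin thus had fewer MACS2 peaks per kb than VIM. Among protein-coding genes with a peak, 95 of 4266 (2.23%) were at least as dense in peaks as nestin. Among those with a summit, 57 of 1896 (3.01%) were at least as dense in summits. Both counts include nestin. Span length counts introns and not the length of the mRNA, and no exon annotation was used here, so these densities favour genes with short introns.

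**Figure D3:**
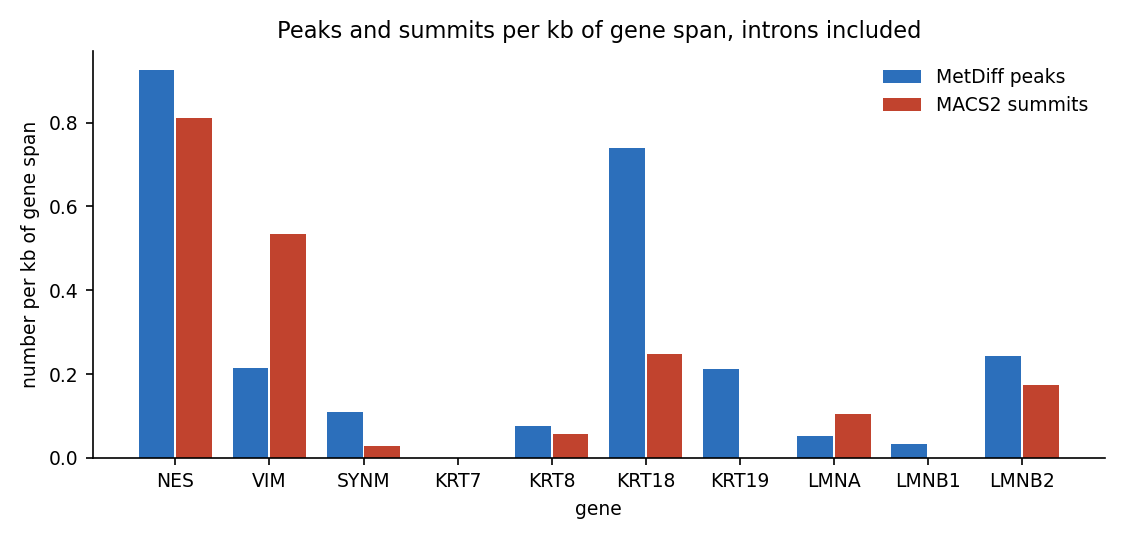
Number of MetDiff peaks (blue) and MACS2 summits (red) per kb of RefSeq gene span, introns included, in each of the 10 filament genes. Nestin has the tallest bars of both kinds (0.925 and 0.810 per kb), followed by KRT18 for peaks (0.740) and VIM for summits (0.535). Summits that share a MACS2 peak are counted separately, as are peaks of opposite strands that share bases.

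Along the gene, nestin blocks left the middle empty, as did those of most partners. With the span cut into 3 parts of equal length, 4 of its 9 blocks lay in the 5′ part, 0 in the middle and 5 in the 3′ part. The 34 blocks of the partners' own IDs fell 8, 2 and 24 (23.5%, 5.88% and 70.6%). Of the 2 middle blocks, LMNA and LMNB2 held 1 each, and each of these genes had 8 blocks in the 3′ part. The middle part held 0 blocks in VIM, SYNM, KRT8, KRT18, KRT19 and LMNB1. Among these, SYNM, KRT8, KRT18 and LMNB1 had blocks in both end parts, like nestin. In KRT8 and KRT18, however, the 5′ blocks lie where the genes overlap and share 149 bases, so they are not separate cases. Over 11717 blocks of peaks in a single protein-coding gene the shares were 27.9%, 24.1% and 48.1%. Along the transcript, the first nestin peak began 99 bases from the 5′ end of the span and the last ended 398 bases before the 3′ end. In LMNA, by comparison, the first peak began 32409 bases into the span, and in VIM the last ended 7608 bases before the 3′ end. Introns take up much of these spans, so an empty stretch may hold no exon.

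**Figure D4:**
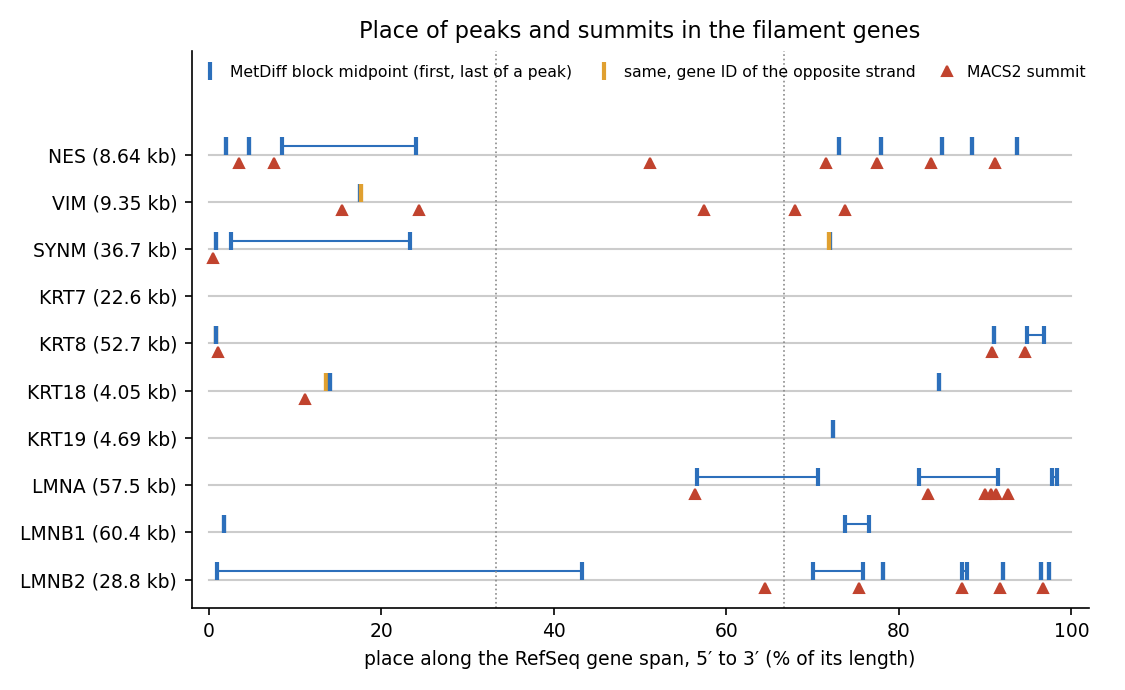
Place of MetDiff peaks (ticks) and MACS2 summits (red triangles) along each gene span, as a percentage of its length from the 5′ end. Ticks mark the first and last block of a peak, joined by a line, and blocks between them are not drawn. They are blue, or orange for a gene ID of the opposite strand. Dotted lines part the span into 3. Nestin, SYNM, KRT8, KRT18 and LMNB1 have blocks in both end parts and none in the middle part, and LMNA and LMNB2 have most of theirs toward the 3′ end.

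At 3 places in the filament genes, peaks of 2 gene IDs on opposite strands lay on the same bases. In VIM, the peak of the VIM ID and a peak of ENSG00000229124 (17229789 to 17229985), which ends at the annotated start of VIM-AS1, shared 187 exonic bases. Their folds were 7.10 and 7.04, while the FDR of the second, 3.98e-13, was far lower than that of the first. The 40 capitals of the vimentin sequence above lie in this shared stretch. In the overlap of KRT8 and KRT18, the peaks with folds of 3.58 and 4.03 shared 149 bases. In SYNM, the third peak and a peak of ENSG00000261054 (99131412 to 99131510) both had a fold of 6.50 and shared 99 bases. The sources used here do not say whether counting used the strand, and without strand the reads of such partners cannot be told apart. Nestin overlaps no other gene of the table and had no such pair.

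Nearness of the lists was counted at 3 nested limits. Of the 27 summits, 6 lay inside a MetDiff block of the same gene (22.2%), 13 within 50 bases and 20 within 150 bases (74.1%). Over all 3705 summits the shares were 17.7% inside a block and 63.6% within 150 bases. Of the 27 summits, 8 shared a MACS2 peak with another summit, so they are not independent and the shares were not tested. Seen from the other list, 7 of 8 nestin peaks (87.5%) had a summit within 150 bases, against 13 of 24 partner peaks (54.2%) and 25.4% of all peaks. The lists may come from the same libraries, so nearness is not independent support.

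In the wider filament family, peaks were restricted to the genes already described. Of 53 type I and type II keratin genes, 3 had a peak (KRT8, KRT18 and KRT19) and 2 a summit. Of 12 type III, type IV and lens filament genes, 3 had a peak and the same 3 a summit (VIM, NES and SYNM), so desmin, GFAP, peripherin, internexin, the neurofilament genes and the lens filament genes had none. All 3 lamins had a peak. Of 125 pseudogenes named after KRT8, KRT18, KRT19, VIM or the B-type lamins, 0 had a peak and 1, KRT8P3, had a weak summit of 2.96 that also lies in the span of ASPH. How reads shared by a keratin and its near-identical pseudogenes were counted is not known, so the keratin values are uncertain to that extent.

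Genes whose proteins bind or modify cytoplasmic filaments had peaks in 14 of 21 cases (66.7%) and summits in 6 (28.6%), beside 21.3% and 9.46% of protein-coding genes. Among those highest in fold were the envoplakin gene EVPL with 12.4 and the epiplakin gene EPPK1 with 11.8. The cytolinker gene PLEC, whose protein ties filaments to junctions, had the strongest summit of this group (64.4, of 21 summits) and 3 peaks with folds between 7.87 and 9.80. Of 20 nuclear envelope partners and processing enzymes of lamins, 6 had a peak (30%) and 3 a summit (15%), beside the same 21.3% and 9.46%. NARF, whose protein binds prelamin A, had a fold of 10.8 and the inner membrane protein gene LEMD2 one of 10.6. SUN2 and SUN1, which link lamins to the cytoskeleton, had 6.27 and 5.10. The strongest summits of this group were those of SUN1 (30.3) and LEMD2 (27.4). Both lists were chosen with earlier results of these data known. Their shares were not matched to the background for gene length or expression, and the differences were not tested.

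**Figure D5:**
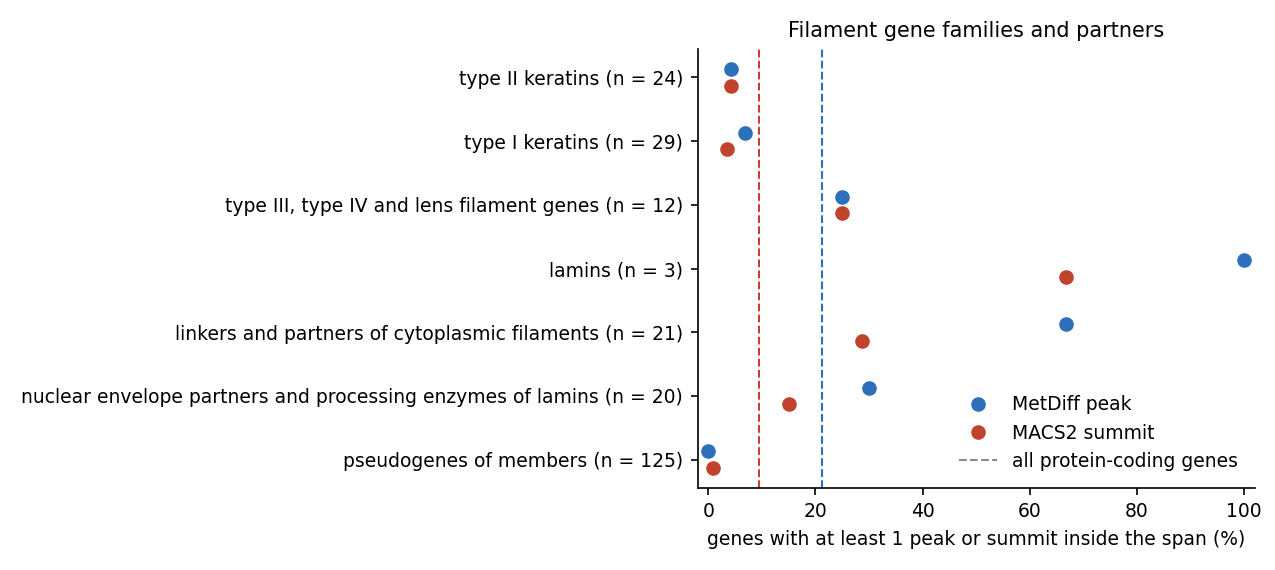
Share of genes with at least 1 MetDiff peak (blue) or MACS2 summit (red) inside the span, in percent, for filament families, their partners and the pseudogenes of the filament genes. Dashed lines give the shares over all protein-coding genes (21.3% and 9.46%). The keratins and the pseudogenes lie below the line of their colour, and the other 4 lists lie above it, from 25% of the type III, type IV and lens filament genes with a peak to 100% of the 3 lamins.

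Marker genes of the labelled cell type add little to these counts. Of 5 ductal epithelial markers, 3 had a peak, but these were KRT8, KRT18 and KRT19 themselves. Of 4 markers of mesenchymal-like carcinoma cells 3 had one, namely VIM, NES and, outside the 10 genes, the N-cadherin gene CDH2. The share over all protein-coding genes was 21.3%. Markers of stellate cells and fibroblasts (4 genes), neurons (3), acinar cells (2) and islets (2) had 0 peaks and 0 summits. A peak list is not a measure of expression, and these counts do not give the level of any marker.

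The genes most like nestin were sought by distance over 4 standardized log2 measures: number of peaks, exonic bases covered, median fold, and number of summits. Among 3820 genes, the nearest were DCTN1, which encodes a subunit of dynactin, with 8 peaks, 1307 bases, a median fold of 4.00 and 6 summits, then the transporter gene SLC38A10 with 8 peaks, 1550 bases, 3.52 and 6 summits, and TNRC18 with 9 peaks, 1305 bases, 4.44 and 9 summits. Their distances from nestin were 0.525, 0.590 and 0.594. No other filament gene was among these 3.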

How the data were processed

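The 12 libraries were grouped by their titles. The deposited lists carry no header, so units were judged by layout and values. The deposited MACS2 list gives 1-base summits with a value taken as −log10 of a q-value, since its smallest, 1.35, lies just above −log10 of 0.05. The deposited MetDiff list gives exon blocks, strand, gene ID, a p-value, the log10 of an FDR, and a ratio, read as a fold of IP over input. Exonic lengths lay within 2 bases of a multiple of 50 in 97.6% of peaks, which limits how finely a position can be read. Per the submitters' processing notes, tools included STAR 2.7.1, MACS2 2.2.5, SAMtools, Picard, bedtools, featureCounts, edgeR, DESeq2 and ChIPseeker, with GRCh38; the sources used here do not give their roles, settings or any pooling of replicates. All fold, FDR and −log10 q values are the authors'.

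Peaks and summits were assigned to RefSeq spans (GRCh38.p14) in Python 3.11.15 with pandas 2.3.3, after the functions were tested on made-up spans. Gene IDs were placed by position. Strand came from the RefSeq promoter table, which held 7 of the 10 genes, or else from the MetDiff rows. The members and lists were chosen with earlier results of these data known. Named genes are the 10 members, the 4 highest folds and 2 strongest summits outside them in each wider list, and the 3 genes most like nestin; some genes that this rule names are counted but not reported here. KRT8P3, named for its single summit, and the pairs of opposite strand were chosen after their values were seen. Protein lengths were planned but not analysed here. Sequence came only from the RefSeq promoter and miRNA tables; a whole genome and exon annotation were not used. The protocol also names a GFP antibody, which no library analysed here is labelled with.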

Additional observations from a re-analysis of the deposited data

How the results depend on the processing

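Stricter thresholds and other ways to assign peaks left most counts close to those reported. The number of filament peaks, 32, was 30 at an FDR under 0.01, 31 with a fold of at least 2, 27 without peaks in another gene's span and 30 with only the main gene ID of each gene. The number of summits, 27, was 21 at −log10 q of at least 10 and 24 without those in another gene's span. The ratio of nestin to the median of its partners in peaks per kb, 8.49, stayed at 8.49 with a fold of at least 2. It was 11.3 at an FDR under 0.01 and 11.3 with only the main gene ID. It moved to 17.7 without peaks in another gene's span, where VIM, SYNM, KRT8 and KRT18 lose peaks. The same step left the partners with a median of 0 summits, so that ratio has no value. The share of filament summits near a block moved from 22.2% inside to 48.1% within 50 bases and 74.1% within 150 bases, by construction of the wider limit. No paired analysis was possible because neither list holds a value per library; for the same reason no replicate could be left out. Peaks per 100 residues were not run. Depth is unknown, so the lists do not tell a gene without enrichment from one below detection, as for KRT7.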

Other observations

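Pairs of peaks on opposite strands, seen at vimentin, synemin and the overlap of KRT8 and KRT18, were also counted over the whole MetDiff list. There were 217 pairs that shared exonic bases, made of 415 peaks (4.33% of all). The larger fold of a pair was a median of 1.13 times the smaller, and 195 of the pairs (89.9%) had folds within 1.5 times of each other. The deposited FDRs differed more in the vimentin pair, at 2.00e-06 and 3.98e-13, than its folds of 7.10 and 7.04.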
